A study of Homo sapiens with 6 samples.

Results

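The MYC, MAX and MXD network is a family of basic helix-loop-helix leucine zipper transcription factors, and its mRNAs were followed in growing HEK293T cells and in HEK293T cells treated with the mTOR kinase inhibitor PP242. The network was taken as the 9 genes named MYC, MYCN, MAX, MXD1, MXD3, MXD4, MXI1, MNT and MGA in the mRNA-seq table, which hold 21 of its 38438 transcripts and 9 of its 20062 named genes. These genes were chosen by their names with the measured RPKM of growing and PP242-treated cells known, so the changes of these 9 genes are given as a description, with no p-value. HEK293T cells derive from human embryonic kidney and carry SV40 large T antigen, and all were cultured in DMEM with fetal bovine serum. For mRNA-seq, 2 libraries came from growing cells, which received no inhibitor, and 2 from cells under mTOR-inactive conditions, for which a PP242 concentration of 2.5 µM is stated. In parallel, LARP1-bound RNA was sequenced by PAR-CLIP in 1 library per condition from cells labeled with 4-thiouridine. PAR-CLIP crosslinks 4-thiouridine in RNA to a bound protein with ultraviolet light, and the crosslinked sites are read as T-to-C conversions. The duration of PP242 treatment is not given in the sources used here.

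MYC and MYCN form heterodimers with MAX that bind E-box DNA and activate genes for ribosome synthesis, metabolism and cell cycle entry. The MXD proteins, including MXI1, and MNT compete for MAX and repress transcription at E-boxes through SIN3 and histone deacetylases. MGA also binds MAX and is a subunit of a noncanonical polycomb complex, PRC1.6. MYC itself is a short-lived mRNA and protein, and its level is known to depend on growth signaling.

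Levels are given as RPKM, the reads of a transcript relative to its length and to all mapped reads, so they can be compared between genes. RPKM is relative to the other RNAs of a library, and a change in total RNA per cell cannot be told apart from no change on this scale. For each gene the RPKM of its transcripts was summed. Changes are differences of the mean log2(RPKM + 1), PP242 minus growing, with the standard error (SE) of a limma fit to all 13288 genes with a mean of at least 1 RPKM. On this scale the change of a gene with low RPKM is understated. A gene is called higher or lower where the adjusted p (limma, Benjamini-Hochberg over all genes tested) is below 0.05. The depth of the second growing library was 1.06 times that of the first, and the PP242 libraries were at 1.04 and 1.06 times, as read from the steps between low values. The median difference between the replicate libraries of a condition was 0.039 log2 units for growing and 0.038 for PP242. Of the genes that mark HEK293T cells, VIM was at 210 to 239 RPKM, NEFM at 26.0 to 30.3 and LIN28B at 19.1 to 19.9, while the kidney factor PAX2 reached only 0.652. The liver, blood, muscle and fibroblast markers ALB, APOA1, PTPRC, MYH7, DES and DCN were at or below 0.203 RPKM, and COL1A1 was at 1.76 to 1.84.

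MYC was the network gene whose mRNA differed most between conditions. Its transcript NM_002467.4, from the gene at chr8:128747680-128755197 (GRCh37, plus strand), was at 32.0 and 32.9 RPKM in the growing libraries and at 54.5 and 55.0 RPKM in the PP242 libraries. Both PP242 libraries lay above both growing libraries, and the gap was far wider than the spread within either condition. The mean level was 32.4 ± 0.633 RPKM (SD, n = 2) in growing cells and 54.7 ± 0.355 RPKM (SD, n = 2) after PP242, a 1.69-fold difference and a change of 0.74 (SE 0.029) on the log2 scale. Among the 13288 genes tested, 22 had a larger rise. Leaving out each library in turn gave a change of 0.72 to 0.76.

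MYCN, the neuronal MYC paralogue at chr2:16080672-16087129 (plus strand), was close to absent. Its RPKM was 0.0116 and 0.0439 in the growing libraries and was listed at 0 and at 0.011 in the PP242 libraries. After correction for depth these values are 1, 4.01, 0 and 1.01 times the value of the first growing library, so they rest on a few steps of the scale. MYCN lay under the filter on low values and no change is given.

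MAX, the shared dimerization partner of the network, is encoded at chr14:65472892-65569413 (minus strand) and is listed with 6 transcripts. Its summed level was 38.4 and 38.0 RPKM in the growing libraries and 34.2 and 35.2 RPKM in the PP242 libraries. The PP242 libraries were both below the growing libraries, by a much smaller step than the one seen for MYC. The means were 38.2 ± 0.333 and 34.7 ± 0.645 RPKM (SD, n = 2 each), a change of -0.14 (SE 0.030). All 6 transcripts were lower in both PP242 libraries than in both growing libraries, with changes from -0.17 to -0.09. NM_145112.1, the most abundant, was at 10.00 and 9.65 RPKM in growing cells and at 9.06 and 9.28 RPKM after PP242. NM_145114.1, the least abundant, was at 2.33 and 2.34 RPKM in growing cells and at 2.00 and 1.91 RPKM after PP242. The share of the summed level that each transcript took differed little between conditions, and NM_145112.1 held 25.7% in growing cells and 26.4% after PP242. Reads that match several transcripts were divided evenly by the authors, so the values of isoforms that share exons are not independent.

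MXD1, a MAX-binding repressor linked to terminal differentiation, was the other member whose PP242 libraries both lay above both growing libraries. Its level was low throughout. The gene lies at chr2:70124820-70170077 (plus strand), and its 3 transcripts were each below 1 RPKM. Their sum was 1.67 and 1.73 RPKM in the growing libraries and 2.41 and 2.36 RPKM in the PP242 libraries. The groups did not overlap, and the means of 1.70 ± 0.0408 and 2.39 ± 0.0324 RPKM (SD, n = 2 each) differed 1.40-fold. The change was 0.33 (SE 0.058).

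MXD3 and MXD4, the family members with the highest mRNA level among the repressors, differed little between conditions. MXD3 (chr5:176728462-176739758, minus strand) was at 28.0 and 26.5 RPKM in the growing libraries and at 27.9 and 26.2 RPKM in the PP242 libraries. The ranges of both conditions overlapped, and the change was -0.01 (SE 0.042). Its main transcript NM_001142935.1 held 82.0% of the summed level in growing cells and 80.9% after PP242.

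The MXD4 mRNA NM_006454.2 (chr4:2249159-2263836, minus strand) was at 19.5 and 20.3 RPKM in the growing libraries and at 19.0 and 19.2 RPKM in the PP242 libraries. Both PP242 values were below both growing values, but the means differed by less than the growing libraries differed from each other. The change was -0.05 (SE 0.035), and it was -0.084 without growing library 1 and -0.026 without growing library 2. A further row under the name MXD4, NR_039964.1, is the hairpin of the microRNA MIR4800 in the RefSeq annotation, which lies in the MXD4 locus. It was at 2.28 and 3.40 RPKM in growing cells and at 2.75 and 1.61 RPKM after PP242, with overlapping groups, and it is left out of the MXD4 level here. With this row the summed MXD4 level changed by -0.09 (SE 0.046). This sum changed by -0.15 without growing library 1 and by -0.03 without growing library 2.

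MXI1, also called MXD2, was the repressor with the largest decrease. The gene lies at chr10:111967363-112047123 (plus strand), and its 3 transcripts summed to 8.77 and 9.06 RPKM in the growing libraries and to 7.44 and 7.95 RPKM in the PP242 libraries. The groups did not overlap. The means were 8.91 ± 0.201 and 7.69 ± 0.359 RPKM (SD, n = 2 each), and the change was -0.19 (SE 0.045). NM_130439.3 was at 3.10 and 3.15 RPKM in growing cells and at 2.52 and 2.76 RPKM after PP242, and the other two transcripts were likewise lower in both PP242 libraries.

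MNT, the widely expressed antagonist of MYC, was at 4.71 and 5.20 RPKM in the growing libraries and at 5.03 and 5.19 RPKM in the PP242 libraries (NM_020310.2, chr17:2287367-2304398, minus strand). The PP242 values lay within the range of the growing values, and the change was 0.04 (SE 0.054). It was -0.021 without growing library 1 and 0.098 without growing library 2. MGA, the largest protein of the network, summed to 7.45 and 7.65 RPKM in the growing libraries and to 7.58 and 7.93 RPKM in the PP242 libraries (chr15:41913332-42065279, plus strand). These groups overlapped as well, with a change of 0.03 (SE 0.043). The MGA change ranged from 0.0038 to 0.062 when 1 library was left out. Both MGA transcripts held about the same share of the level, with 49.5% on NM_001080541.2 in growing cells and 49.4% after PP242.

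**Figure D1:**
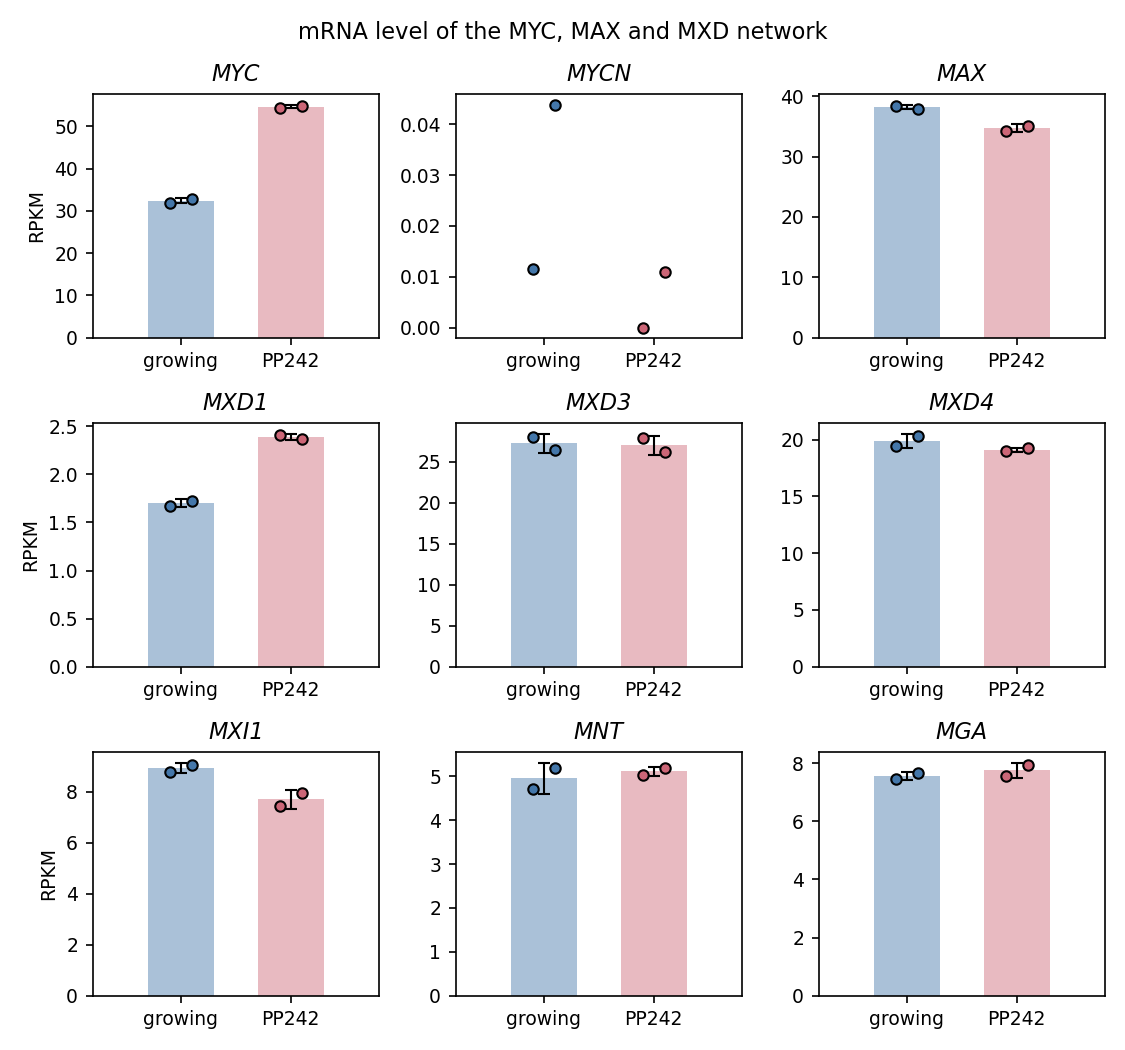
mRNA level in RPKM (vertical axes, 1 scale per gene) of the 9 network genes in growing cells (blue) and after PP242 (red). Points are single libraries, bars the mean and error bars the SD of 2 libraries, MYCN is shown as points only because 1 of its values is 0, and MXD4 is shown without the microRNA hairpin. MYC goes from 32.4 to 54.7 RPKM and MXD1 from 1.70 to 2.39 RPKM, while the libraries of MXD3, MNT and MGA overlap.

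Of the 8 genes that passed the filter, MYC and MXD1 were called higher, where 4.25% of all genes tested were, and MAX and MXI1 were called lower, where 8.49% were. Both PP242 libraries were above both growing libraries in 2 of these genes (28.0% of all genes) and below them in 3 (30.9% of all genes), namely MAX, MXD4 and MXI1. Of the 21 transcripts, 17 passed the filter, the MIR4800 row included. The MYC transcript was called higher, against 3.48% of all transcripts tested, and the MAX transcripts NM_145114.1 and NM_145116.1 were called lower, against 6.45%. The PP242 libraries were both above in 1 transcript (28.5% of all transcripts) and both below in 10 (30.0%). Nothing is read from these counts, because the genes were chosen with the contrast known. They also change with the fit. Neither MAX transcript was called when any 1 of the 4 libraries was left out, and MXD1 was not called without growing library 1 (0.31, SE 0.075). MAX and MXI1 were not called without growing library 1 (-0.13 and -0.21), without growing library 2 (-0.14 and -0.17), without PP242 library 1 (-0.12 and -0.15) or in a limma fit without a trend (-0.14, SE 0.035, and -0.19, SE 0.043).

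**Figure D2:**
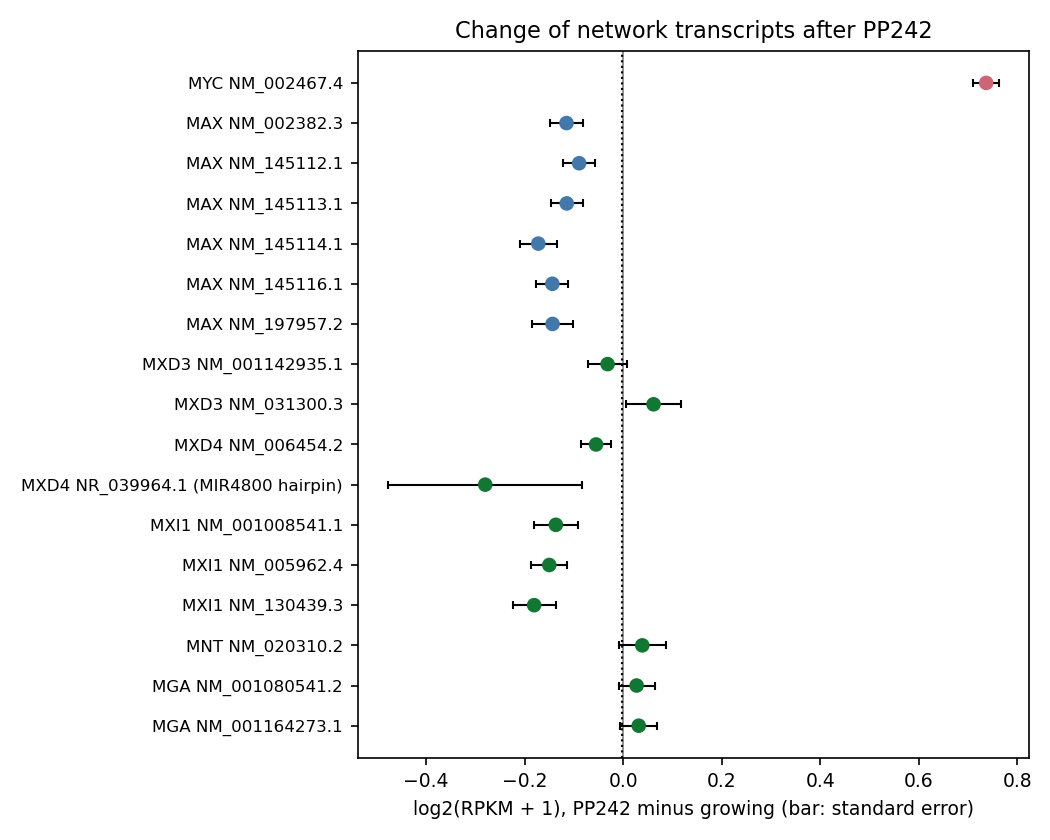
Change of each network transcript that passed the filter, as the difference of mean log2(RPKM + 1), PP242 minus growing (horizontal axis), with the standard error of the limma fit as bars. The dotted line is the median of all 21014 transcripts tested. MYC stands at 0.74, the 6 MAX and 3 MXI1 transcripts lie between -0.18 and -0.09, and the wide bar belongs to the MIR4800 hairpin.

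In growing cells the order of the summed levels was MAX, MYC, MXD3, MXD4, MXI1, MGA, MNT, MXD1 and MYCN, from 38.2 to 0.0278 RPKM, and no neighbours in this order overlapped in their libraries. After PP242 MYC stood above MAX, and the rest of the order was the same except for MGA and MXI1, at 7.75 and 7.69 RPKM, whose libraries overlapped. The ratio of MYC to MAX RPKM was 0.832 and 0.866 in the growing libraries and 1.59 and 1.56 in the PP242 libraries. It thus lay below 1 in both growing libraries and above 1 in both PP242 libraries. The summed RPKM of MXD1, MXD3, MXD4, MXI1, MNT and MGA was 70.1 and 70.4 in growing cells and 69.3 and 68.8 after PP242. MYC divided by this sum went from 0.456 and 0.467 to 0.786 and 0.799. MYC held 22.8% and 23.3% of the RPKM of the whole network in the growing libraries and 34.5% and 34.6% in the PP242 libraries. These ratios compare mRNA levels, and protein was not measured in these data.

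**Figure D3:**
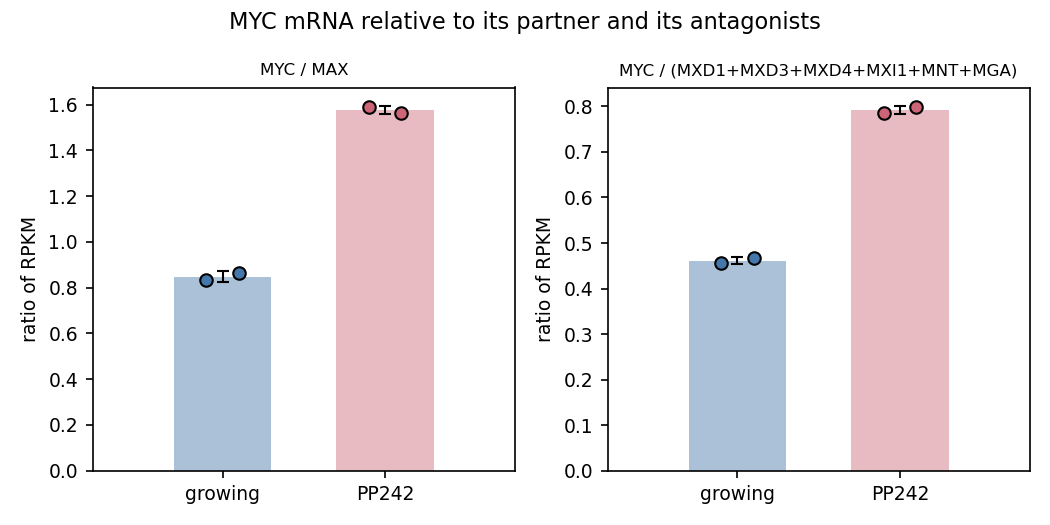
Ratio of MYC RPKM to MAX RPKM (left) and to the summed RPKM of MXD1, MXD3, MXD4, MXI1, MNT and MGA (right), for growing cells (blue) and PP242 (red). Points are single libraries, bars the mean and error bars the SD of 2 libraries, with vertical axes from 0. The MYC to MAX ratio moves from 0.832 and 0.866 to 1.59 and 1.56.

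Among genes whose mean RPKM was within 2-fold of that of MYC, those with the most similar pattern over the 4 libraries included RASSF1 and JUN, by the Euclidean distance of centred log2 values. RASSF1, a Ras-association domain tumor suppressor, was at 16.7 and 16.8 RPKM in growing cells and at 30.4 and 29.3 RPKM after PP242. JUN, a subunit of AP-1, was at 54.3 and 51.4 RPKM in growing cells and at 95.7 and 94.6 RPKM after PP242. The distances were 0.0780 and 0.131 among 2741 genes compared. For MXI1 the nearest of 5208 genes were NAPG, PHAX and HOXA13, at distances of 0.0108, 0.0156 and 0.0173. With 2 libraries per condition, this likeness rests on few values.

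**Figure D4:**
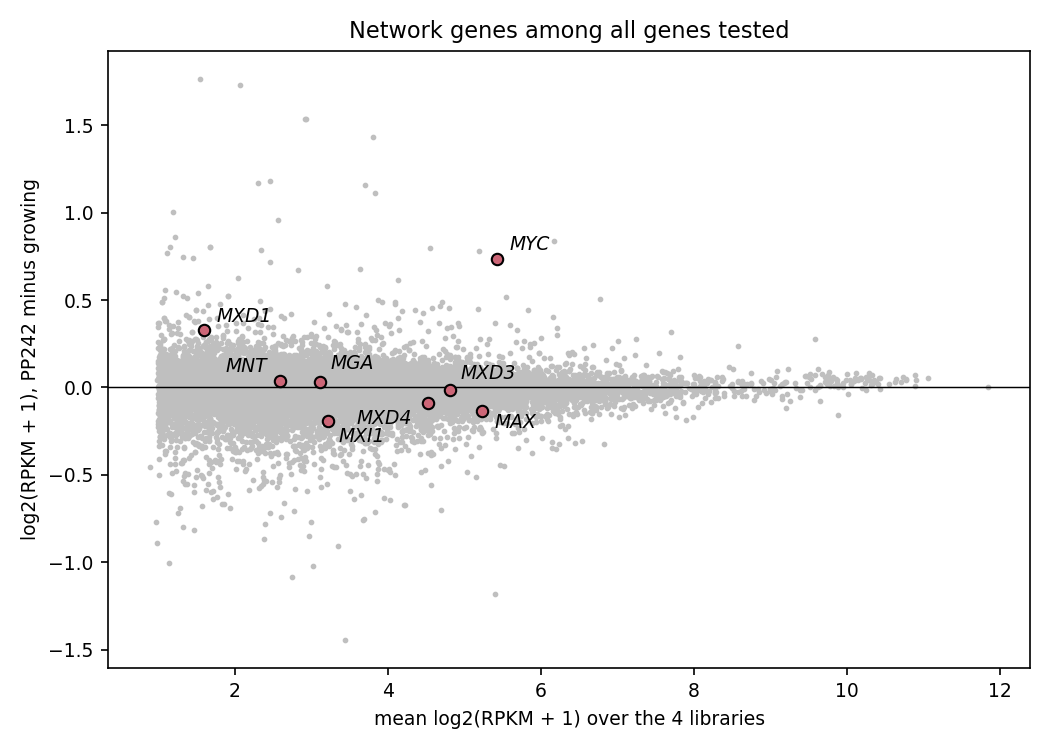
Change after PP242 (vertical axis, difference of mean log2(RPKM + 1), PP242 minus growing) against the mean log2(RPKM + 1) of the 4 libraries (horizontal axis) for the 13288 genes tested (grey) and the 8 network genes among them (red). MXD4 is drawn with the microRNA hairpin row that carries its name. MYC at 0.74 is the network gene farthest from 0, and MXD1 at 0.33 is the next.

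The other genes of the pathway were taken from 8 lists. These were written with earlier results of these data known, so their counts and adjusted p are given as a description. In the counts of these lists, rose and fell stand for called higher and called lower. Among all 13288 genes the median change was -0.0040, and 4.25% were called higher and 8.49% lower. This median was -0.0042 without growing library 1 and -0.0024 without growing library 2. It was -0.00078 without PP242 library 1, -0.0065 without PP242 library 2 and 0.012 with the libraries centred on their median. The extended network holds the MYC paralogue MYCL, named MYCL1 in the table, and MLX, MLXIP and MLXIPL, which form the parallel MLX branch for nutrient sensing. All 4 passed the filter, 0 rose and 1 fell (25% of the list, beside 8.49% of all genes), with a median of -0.07. The gene that fell was MLX, from 20.5 and 20.5 RPKM to 18.2 and 17.8 RPKM (-0.18, SE 0.032, limma adjusted p = 0.0123), and it was not called without PP242 library 2 (adjusted p = 0.0542). MYCL1 was below the growing libraries in both PP242 libraries as well, with a log2 difference of -0.19 that was not called (limma adjusted p = 0.129).

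The 17 SIN3, histone deacetylase and NCOR corepressors through which MXD and MNT act all passed the filter, and their median change was -0.02, which was -0.0070 without growing library 1, -0.013 without growing library 2, -0.0014 without PP242 library 1 and -0.034 without PP242 library 2. None rose and 1 fell (5.88%, beside 8.49% of all genes), namely ING2, a reader of methylated histone H3 in the SIN3 complex, from 6.77 and 7.72 RPKM to 5.55 and 5.56 RPKM (-0.33, SE 0.059, limma adjusted p = 0.0117). Of the 12 genes of the PRC1.6 complex that holds MGA and MAX, 0 rose and 2 fell (16.7%, beside 8.49% of all genes). The median was -0.03, and it was -0.018 without PP242 library 1, -0.054 without growing library 2 and -0.055 without PP242 library 2. The E3 ligase RNF2 changed by -0.14 (SE 0.033, limma adjusted p = 0.0316) and its partner RYBP by -0.15 (SE 0.037, limma adjusted p = 0.0374). Neither of these calls was kept when any 1 library was left out, with adjusted p from 0.0596 to 0.144.

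Among 15 MYC coactivators 2 rose (13.3%, beside 4.25% of all genes) and 0 fell (beside 8.49%). The median was 0.04, and it was 0.017 without growing library 1, 0.025 without growing library 2 and 0.012 without PP242 library 1. CCNT1, the cyclin of the elongation factor P-TEFb, was at 11.3 and 11.6 RPKM in growing cells and at 13.3 and 14.0 RPKM after PP242 (0.23, SE 0.039, limma adjusted p = 0.00963). Both PP242 libraries were above both growing libraries, and the call was kept when any 1 library was left out, with adjusted p from 0.0100 to 0.0434. The number of coactivators that rose was 1 without growing library 2 or without either PP242 library.

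Of 13 genes that control the turnover of MYC protein, 2 rose (15.4%, beside 4.25% of all genes) and 1 fell (7.69%, beside 8.49%). The median was 0.02, and it was 0.0063 without growing library 1 and -0.014 without PP242 library 1. AURKA, a mitotic kinase that shields MYCN and MYC from degradation, was at 35.8 and 36.4 RPKM in growing cells and at 46.3 and 47.5 RPKM after PP242 (0.37, SE 0.029, limma adjusted p = 0.000399). GSK3B, the kinase that phosphorylates MYC for recognition by FBXW7, changed by 0.16 (SE 0.037, limma adjusted p = 0.0314) and was not called when any 1 library was left out (adjusted p 0.0537 to 0.135). TRIM32, a ubiquitin ligase reported to act on MYC, went from 6.73 and 6.59 RPKM to 4.87 and 5.29 RPKM (-0.34, SE 0.049, limma adjusted p = 0.00531).

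Of 13 regulators of MYC transcription and mRNA, 12 passed the filter, 1 rose and 1 fell, each 8.33% beside 4.25% and 8.49% of all genes. The median was -0.026, and it was -0.015 without growing library 1, -0.014 without growing library 2 and -0.017 without PP242 library 2. The Wnt effector TCF7L2 was at 6.10 and 6.51 RPKM in growing cells and at 7.36 and 8.10 RPKM after PP242 (0.26, SE 0.055, limma adjusted p = 0.0237). It was not called without growing library 1 (adjusted p = 0.100) or without PP242 library 2 (adjusted p = 0.0844). E2F1, a cell cycle activator, was at 24.5 and 24.6 RPKM in growing cells and at 21.4 and 19.6 RPKM after PP242 (-0.25, SE 0.043, limma adjusted p = 0.00983).

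The 68 genes known to be activated by MYC all passed the filter. Of these, 3 rose and 16 fell, which is 4.41% and 23.5% of the list beside 4.25% and 8.49% of all genes, and the median change was -0.04. The largest fall was that of DUSP2, a nuclear MAP kinase phosphatase, from 1.97 and 2.26 RPKM to 0.600 and 0.504 RPKM (-1.01, SE 0.077, limma adjusted p = 0.000333). CDC25A, the phosphatase that activates CDK2, was at 52.2 and 52.5 RPKM in growing cells and at 38.5 and 37.7 RPKM after PP242 (-0.45, SE 0.028, limma adjusted p = 0.000158). PPRC1, a coactivator of mitochondrial biogenesis, changed by -0.35 (SE 0.030, limma adjusted p = 0.000587). In each of these genes both PP242 libraries were below both growing libraries. The genes that rose were the mitotic kinase PLK1 (0.34, SE 0.035, limma adjusted p = 0.00106), the nucleoside transporter SLC29A2 (0.16, SE 0.036, adjusted p = 0.0289) and the serine-glycine enzyme SHMT2 (0.10, SE 0.025, adjusted p = 0.0424). SLC29A2 and SHMT2 were not called when any 1 library was left out, with adjusted p of 0.0573 to 0.124 and 0.0931 to 0.153. The number of genes that fell was 7 without growing library 1, 14 without growing library 2 and 10 without either PP242 library, and the number that rose was 1 to 2 in these fits. Over all genes 596, 746, 738 and 823 were lower in these 4 fits. The number of the list that fell was 5 without a filter on RPKM (184 of all genes), 7 without a trend in the limma fit (749 of all genes) and 11 with the libraries centred on their median, where 906 of all genes were lower and 716 higher instead of 1128 and 565.

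Of the 9 genes known to be repressed by MYC, 8 passed the filter, 2 rose (25%, beside 4.25% of all genes) and 1 fell (12.5%, beside 8.49%). The median was -0.036, and it was -0.018 without PP242 library 2. The cell cycle inhibitor CDKN1B, p27, was at 12.1 and 11.8 RPKM in growing cells and at 14.8 and 14.4 RPKM after PP242 (0.27, SE 0.037, limma adjusted p = 0.00362). The stress gene GADD45A changed by 0.17 (SE 0.032, limma adjusted p = 0.0147) and was not called without growing library 2 (adjusted p = 0.0557) or PP242 library 2 (adjusted p = 0.0688). CDKN1A, p21, which blocks the same kinases as CDKN1B, moved the other way, from 13.7 and 13.8 RPKM to 8.76 and 8.23 RPKM (-0.64, SE 0.041, limma adjusted p = 0.000184).

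**Figure D5:**
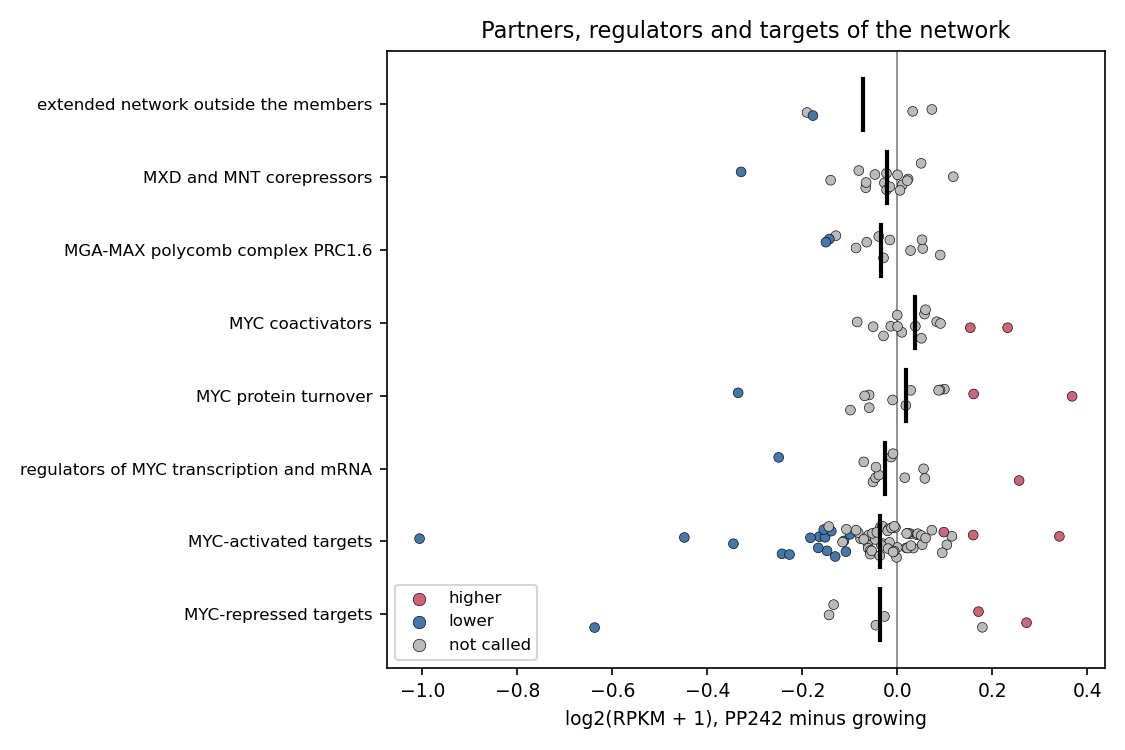
Change after PP242 (horizontal axis, difference of mean log2(RPKM + 1), PP242 minus growing) of the genes of the 8 pathway lists that passed the filter. Each point is a gene, red where it was called higher, blue where lower and grey where not called, and the black bar is the median of the list. The list medians lie between -0.07 and 0.04, and DUSP2 at -1.01 is the lowest point.

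MYC and its antagonists read the E-box CACGTG, so the members' own promoters were searched for it. The promoters are from RefSeq (GRCh38.p14) and run from 250 bases before to 50 bases after each annotated start. A total of 8 of the 9 members matched, with 13 promoters, and MYC is not in the table. CACGTG, which reads the same on both strands, was found in the promoters of MXD4 and MNT, that is in 2 of 8 member genes and in 8.78% of all 27305 genes with a promoter. It was present in 30 of the 55 MYC-activated genes with an entry (54.5%) and in 7 of the 16 that fell (43.8%). Both windows are shown in full because they hold the motif of the network itself, which is in capitals with up to 12 bases on each side, 5′ to 3′ on the strand of the gene.
MXD4 promoter, chr4:2262330-2262359, minus strand: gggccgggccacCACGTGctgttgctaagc
MNT promoter, chr17:2401236-2401265, minus strand: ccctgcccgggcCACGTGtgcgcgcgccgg
The motif begins 238 bases before the start in MXD4 and 193 bases before it in MNT. These 2 genes were at 19.9 and 4.95 RPKM in growing cells and were not called after PP242. A match is a description of these letters and binding was not measured.

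The choice of the genes did not use LARP1 sites. Such sites were listed on 1 of the 9 members in growing cells and on 2 other members after PP242. LARP1 is an RNA binding protein that acts on the translation and stability of mRNAs downstream of mTOR. The site level is given as RPM, the reads of a site relative to all mapped reads. With 1 PAR-CLIP library per condition there is no replicate and no test. MYC, MYCN, MAX, MXD3, MXD4 and MNT had no listed site in either condition, which says only that no cluster passed the filters of the authors. Over all genes past the RPKM filter, 9.15% had a listed site in growing cells and 9.60% after PP242. MYCN is among the 9 members but lay under that filter, and nothing is read from the counts of members.

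After PP242 MXI1 carried nearly all of the site signal of the network, and in growing cells the only listed site was on MXD1. A single 19-nt site in the 3′UTR of MXI1 was listed after PP242 at 125 RPM. No MXI1 site was listed in growing cells, which again says only that no cluster passed the filters of the authors. The site is listed on all 3 transcripts with the same RPM, at nucleotides 3332 to 3350 of NM_130439.3, 3134 to 3152 of NM_005962.4 and 2909 to 2927 of NM_001008541.1, so it counts as 1 site. Its RPM was above that of 85.3% of the 1390 distinct 3′UTR sites after PP242, and no other gene had the same value. At the same time the MXI1 mRNA was at 7.69 RPKM, below the 8.91 RPKM of growing cells. The site is shown because it is the only site of the network above 1 RPM, with its longest run of pyrimidines in capitals.
MXI1 3′UTR site, chr10:112046985-112047003 (GRCh37), plus strand, exon 6: cctaaattaCCCTTCCCTg
The position was read on the GENCODE transcript that ends at the gene's end, and the exons of a shorter GENCODE transcript, with the last exon continued to the same end, place it at the listed nucleotides of NM_001008541.1. The run of pyrimidines is 9 nt long. Pyrimidines make up 73.7% of the site and 50.8% of the rest of the 3′UTR of 2378 nt. How often other stretches of this 3′UTR reach such a share is not given here. The paper describes its pyrimidine motif for 5′UTR sites, and for bound 3′UTR regions a slightly higher G content. RNA was cut with RNase T1 in PAR-CLIP, and the effect of this step on the bases of a site was not tested. Between the site and the end of the transcript lie 120 nt.

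A 22-nt site in the 3′UTR of MXD1 was listed only in growing cells, at 0.198 RPM, on all 3 transcripts, and the same RPM was listed on USP3. Its RPM was above that of 86.6% of the 1334 distinct 3′UTR sites in growing cells, about the rank of the MXI1 site after PP242, so the RPM of the 2 libraries cannot be compared directly. By RPM divided by the RPKM of the transcript, the MXD1 site ranked above 78.5% to 78.6% of these sites in growing cells and the MXI1 site above 90.1% to 90.3% after PP242. A 15-nt site in the CDS of MGA was listed only after PP242, at 0.0071 RPM, a value that 29 other genes share. A minimum of 1 RPM, which stands at a different rank in each library, left only the MXI1 site, and 1.47% of all genes in growing cells and 3.13% after PP242 had such a site. After PP242 the MXI1 site held 99.99% of the site RPM of the network.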

How the data were processed

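The authors removed linkers, used Bowtie to map reads to GRCh37 transcripts, kept perfect mRNA-seq matches, divided reads matching several loci evenly, and deposited RPKM per transcript and library. For PAR-CLIP, the authors clustered and filtered reads and deposited site levels as RPM, with the RPM divided by transcript RPKM as a ratio and a T-to-C score that the methods do not describe. Both were left out of the comparisons, except the ratio as an alternative. The table holds 39711 lines, of which 1273 repeats were dropped. Of 5989 unnamed transcripts, 2860 were named from RefSeq. Every per-sample column was used. No read totals are given, so no counting error is stated.

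Transcripts or summed genes with a mean of at least 1 RPKM were tested on log2(RPKM + 1) with limma 3.58.1 in R 4.3.3 (lmFit, eBayes with a trend), Benjamini-Hochberg adjusted over all features, threshold 0.05. Python 3.11.15, numpy 2.4.6, pandas 2.3.3 and matplotlib 3.10.9 served the other steps. Tested on simulated data for 13288 genes, the limma step called 164 of 200 genes changed by 0.3 and 200 of 200 changed by 0.7, with 6 and 10 unchanged genes called. The design text calls the mRNA-seq libraries biological duplicates without naming separate cultures, so p-values measure the spread between these libraries. Genome positions come from GENCODE v44lift37.

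The members and lists were chosen with earlier results of these data known. Named genes are the members, up to 3 rising and 3 falling genes per list, and the 3 genes most like the members with the largest rise and fall. Some genes that this rule names are not reported here. Alternatives were other pseudocounts, filters, scaling, a replicate block, no trend, leaving out each library, the highest transcript per gene, a minimum of 1 RPM and, chosen after seeing the data, sums without microRNA hairpin rows.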

Additional observations from a re-analysis of the deposited data

How the results depend on the processing

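The change of MYC stayed between 0.72 and 0.76 under every alternative run, and no result turned its direction past the threshold. Without a filter on RPKM, 57 transcripts were called higher and 63 lower over the whole table (731 and 1356 with the filter), 105 genes were called higher and 184 lower (565 and 1128), 1 network gene was called higher and 0 lower, 0 network transcripts were called lower, and 3 list genes were called higher and 6 lower. With a minimum of 5 RPKM, 1 network gene was called higher and 0 network transcripts lower. With libraries centred on their median, 0 network transcripts were called lower, and 716 genes were higher and 906 lower. With the highest transcript of each gene, 1 network gene was called higher and 0 lower. Leaving out 1 library gave 310 to 348 transcripts higher and 553 to 741 lower, 283 to 323 genes higher and 596 to 823 lower, 1 to 2 network genes higher and 0 to 2 lower, 0 network transcripts lower, and 4 to 7 list genes higher and 12 to 19 lower. In these fits the lone library of a condition is assumed to vary like the other condition. A minimum of 1 RPM left 0 of 3 listed LARP1 sites in growing cells and 3 of 5 after PP242. Without a trend in the limma fit, 358 genes were called higher and 749 lower, and MAX and MXI1 were not called. The cause of these shifts was not tested.

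The replicate numbers give no pairing in the labels, and the deviations of same-numbered libraries had a correlation of 0.040. With the replicate block 717 genes were higher and 1342 lower, and 0 network transcripts were called lower. With 2 libraries per condition and no read totals, small changes of genes with low RPKM, MYCN above all, could not be resolved.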

Other observations

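Some further genes tied to MYC were looked up after their values were seen. PVT1, the long noncoding RNA gene next to MYC, was at 1.98 and 1.73 RPKM in growing cells and at 2.31 and 2.56 RPKM after PP242, with groups that did not overlap (0.27 on the log2 scale, SE 0.070, adjusted p = 0.0454 by limma with Benjamini-Hochberg adjustment). As it was chosen for its values, nothing is read from this p. The MYC-binding proteins MYCBP, MYCBP2 and BIN1 had log2 differences of 0.07 (SE 0.039), 0.09 (SE 0.036) and 0.08 (SE 0.036), and the limma fit with Benjamini-Hochberg adjustment did not call them (adjusted p 0.256, 0.153 and 0.206). MTBP, another MYC-binding protein, had a log2 difference of -0.04 (SE 0.042, limma adjusted p = 0.574), and MYCT1 lay under the filter on low values.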
